A study of Mus musculus with 2 samples.

Results

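Osteopontin, encoded by Spp1, and the matrix metalloproteinases encoded by Mmp9, Mmp10, Mmp12, Mmp14 and Mmp19 were followed across the cell lineages of the mouse gut lamina propria, as 6 of the 32285 genes listed in the count matrices. The genes were picked by symbol, with earlier results of these same counts known, so their levels and the differences between libraries are given as a description and no test was made on them. The data are single-cell RNA sequencing counts from 2 libraries, CD163_FL and CD163_NC, with 1 library per group. The series title names mice lacking CD163+ macrophages and wild-type mice, but the labels do not tie either kind of mouse to a library, so CD163_FL and CD163_NC are used as names only, without a genotype. Per the labels, both held CD45+ cells of the colon taken from a Percoll interphase, with dead cells removed by 7-AAD staining. Both were made with the 10x 3' V3 kit. Age, sex, the number of mice, pooling and the way CD163+ macrophages were removed were not given in the sources used here. With 1 library per group no difference has a replicate check, intervals cover counting error only, and every ratio (CD163_FL over CD163_NC) compares these libraries, not conditions.

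Osteopontin is a secreted, highly phosphorylated glycoprotein that binds CD44 and several integrins. It acts both as a matrix component and as a cytokine, and macrophages are a well-known source of it in inflamed tissue. Matrix metalloproteinases are zinc-dependent proteases made as inactive proenzymes. They cut collagens, elastin, laminins and many soluble proteins, are held in check by tissue inhibitors (TIMPs), and take part in both damage and repair of the gut wall.

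After filtering, CD163_FL had 14379 cells with a median of 6639 unique molecular identifiers (UMIs) and CD163_NC had 10012 cells with a median of 6147.5 UMIs. Cells were assigned to lineages by how many of 8 markers of a lineage had a UMI, at least 4 being needed and at least 2 more than of any other lineage. This placed 944 CD163_FL cells (6.57%) and 400 CD163_NC cells (4.0%) in a macrophage or monocyte gate and 6763 and 3154 cells in a T cell gate. Cells whose markers pointed to more than 1 lineage were called mixed, 986 and 828 in number. The CD45 gene Ptprc had a UMI in 94.4% of CD163_FL cells and 87.3% of CD163_NC cells, but in only 11 of the 51 CD163_FL cells of a fibroblast gate. Cd163 had 5 UMIs in the CD163_FL macrophage gate and 7 in that of CD163_NC, which is 0.670 and 2.04 counts per 1000000 UMIs (CPM) and close to the level of 3 counts (0.402 and 0.874 CPM). The libraries shared 49 cell barcodes. The macrophage gates differed in make-up, since C1qa stood at 141 CPM in CD163_FL and 814 CPM in CD163_NC, and Ly6c2 at 921 and 4364 CPM. Summed neutrophil markers stood at 114 CPM in the CD163_FL macrophage gate and 2599 CPM in that of CD163_NC, with all 8 of 8 markers found in both. The part of these differences in the results below was not tested.

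The 6 genes lie at 5 places in the genome (GRCm38, GENCODE annotation, all on the plus strand). Spp1 lies at chr5:104435118-104441050, Mmp9 at chr2:164940780-164955850, Mmp14 at chr14:54431612-54445364 and Mmp19 at chr10:128790910-128800824. Mmp12 at chr9:7344381-7369499 and Mmp10 at chr9:7502352-7510240 belong to a run of 9 metalloproteinase genes that spans 427 kb of chromosome 9, in the order Mmp13, Mmp12, Mmp1b, Mmp3, Mmp10, Mmp8, Mmp27, Mmp20 and Mmp7. The 250 bases before the RefSeq start sites (GRCm38.p6, plus strand) are printed for the Spp1, Mmp12 and Mmp10 windows that hold a match to a searched motif, because the first pair were macrophage genes and the last a T cell gene in these libraries. Capitals mark GAGGAAGT (a PU.1-type ETS motif, ACTTCCTC on the other strand), TGANTCA (the AP-1 motif) and TATAAA (the TATA box), each searched on both strands.

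Spp1, chr5:104434861-104435110: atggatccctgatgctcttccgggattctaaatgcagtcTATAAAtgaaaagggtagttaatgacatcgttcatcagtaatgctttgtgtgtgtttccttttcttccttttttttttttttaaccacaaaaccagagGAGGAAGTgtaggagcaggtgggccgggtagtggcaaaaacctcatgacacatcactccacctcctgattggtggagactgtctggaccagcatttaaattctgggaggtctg
Mmp12, first start, chr9:7344147-7344396: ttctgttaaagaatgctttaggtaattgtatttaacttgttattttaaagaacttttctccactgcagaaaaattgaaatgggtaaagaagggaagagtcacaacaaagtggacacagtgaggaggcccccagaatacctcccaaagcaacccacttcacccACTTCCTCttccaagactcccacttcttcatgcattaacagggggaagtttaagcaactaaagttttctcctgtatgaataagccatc
Mmp12, second start, chr9:7347124-7347373: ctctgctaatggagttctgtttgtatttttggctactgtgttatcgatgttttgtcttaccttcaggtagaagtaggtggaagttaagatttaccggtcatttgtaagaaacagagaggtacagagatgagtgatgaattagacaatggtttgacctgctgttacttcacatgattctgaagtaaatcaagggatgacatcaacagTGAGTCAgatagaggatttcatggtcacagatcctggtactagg
Mmp10, chr9:7502092-7502341: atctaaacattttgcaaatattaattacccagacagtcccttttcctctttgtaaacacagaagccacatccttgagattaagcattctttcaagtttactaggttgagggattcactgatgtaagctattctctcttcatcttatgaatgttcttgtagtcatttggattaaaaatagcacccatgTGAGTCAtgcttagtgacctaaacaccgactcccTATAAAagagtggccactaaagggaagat

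GAGGAAGT was matched 113 to 106 bases before the Spp1 start and, on the minus strand, 88 to 81 bases before the first Mmp12 start. TGAGTCA was matched 44 to 38 bases before the second Mmp12 start and 63 to 57 bases before the Mmp10 start. TATAAA stood 29 to 24 bases before the Mmp10 start and 211 to 206 bases before that of Spp1. Among 32851 windows of 250 bases, 2.44% held GAGGAAGT, 6.75% held TGANTCA and 12.4% held TATAAA. A second Spp1 window and the Mmp14 window held none of the 3 motifs in these letters.

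By total UMIs, which also follow the number of cells in a gate, the 6 genes divided among 3 kinds of cell. Spp1, Mmp12, Mmp14 and Mmp19 had more UMIs in the macrophage or monocyte gate than in any other gated lineage of either library. They are called macrophage genes in this sense only. By level, Mmp14 was higher in the CD163_FL fibroblast gate (548 CPM) than in the macrophage gate (225 CPM), and Mmp19 was close (97.6 and 83.3 CPM). In the 3 CD163_NC fibroblast-gated cells both stood at 394 CPM, against 152 and 28.5 CPM in the macrophage gate. Mmp10 lay mainly in T cells. Mmp9 lay mainly in neutrophils in CD163_NC, and in T cells (31.9%), mixed cells (29.1%) and neutrophils (25.4%) in CD163_FL. Of the 62 Mmp9 UMIs in CD163_FL mixed cells 34 were in 1 cell. The macrophage gate held 63.2% of CD163_FL and 38.7% of CD163_NC Spp1 UMIs, 59.5% and 58.3% of those of Mmp12, 56.4% and 55.0% of those of Mmp14, and 54.0% and 49.7% of those of Mmp19. Mixed cells held between 5.56% (Mmp12, CD163_NC) and 20.8% (Mmp12, CD163_FL) of the UMIs of these 4 genes.

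**Figure D1:**
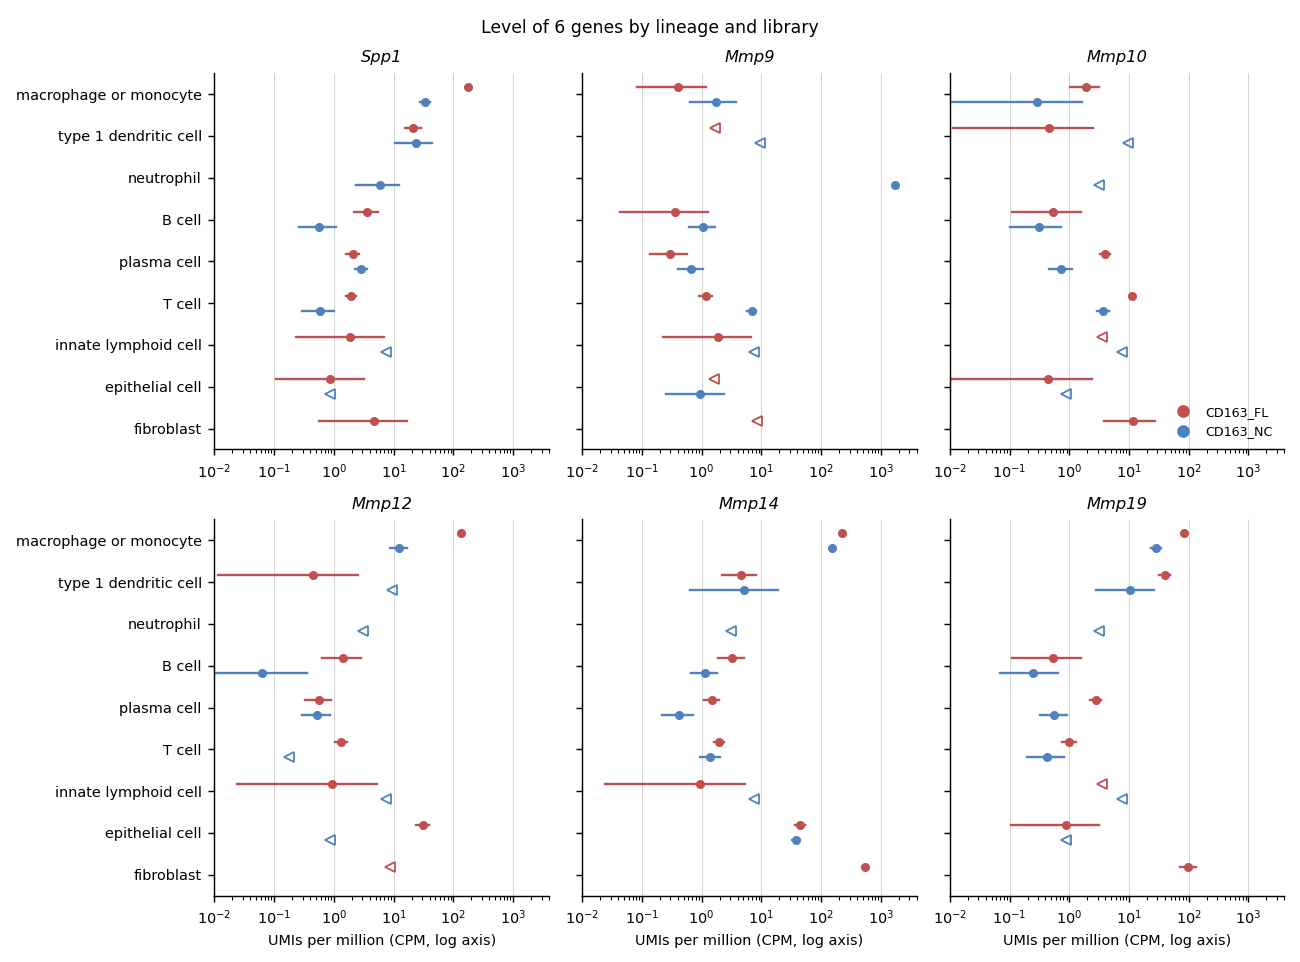
Level of each gene (CPM, log axis) in each gated lineage with at least 50 cells in a library, CD163_FL above CD163_NC; points are CPM of summed UMIs, bars are exact Poisson 95% intervals cut at the axis edge, and open triangles mark the upper limit where no UMI was found. Spp1, Mmp12 and Mmp19 stand higher in the CD163_FL macrophage gate (175, 133 and 83.3 CPM) than in that of CD163_NC (33.5, 12.2 and 28.5 CPM), and Mmp9 peaks in CD163_NC neutrophils (1710.4 CPM). A library with under 20 cells of a lineage is not drawn there, as for the 8 CD163_FL neutrophils.

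**Figure D2:**
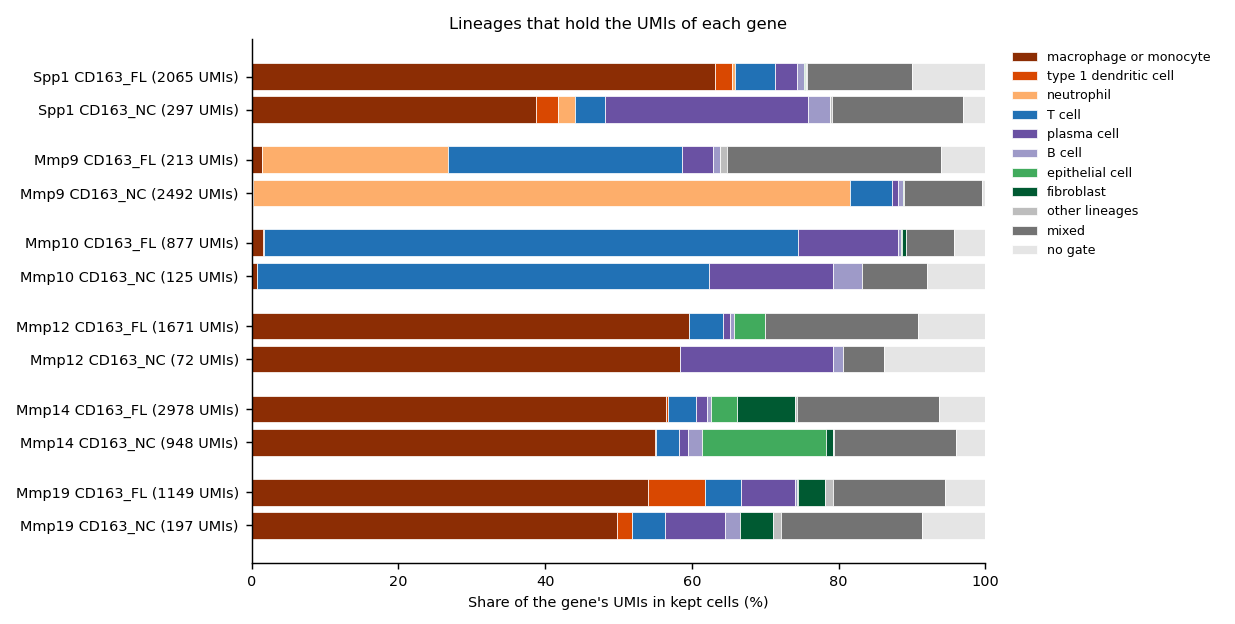
Share of each gene's UMIs (percent of all kept cells of a library) by lineage, CD163_FL above CD163_NC. The macrophage gate takes over 50% of the Mmp12 and Mmp14 UMIs in both libraries, T cells take 72.7% and 61.6% of the Mmp10 UMIs, and neutrophils take 25.4% and 81.3% of the Mmp9 UMIs.

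In T cells the 4 macrophage genes were present at low levels, in CD163_FL in near constant proportion to the macrophage gate. CD163_FL T cells had 111 Spp1, 77 Mmp12, 113 Mmp14 and 57 Mmp19 UMIs, which is 8.51%, 7.74%, 6.73% and 9.18% of the UMIs of the same genes in the CD163_FL macrophage gate. CD163_NC T cells had 12 Spp1, 0 Mmp12, 29 Mmp14 and 9 Mmp19 UMIs, which is 10.4%, 0%, 5.57% and 9.18% of the macrophage gate. In CD163_FL 19 of the 77 Mmp12 UMIs were in 1 T cell, and 5 cells held 48.1% of them. The source of these UMIs in T cells was not tested. Mmp10 went the other way, with 638 UMIs in CD163_FL T cells against 14 in the macrophage gate of that library.

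Spp1 was higher in the CD163_FL macrophage gate, both per cell and in the share of cells with a UMI. It had 1305 UMIs in CD163_FL (175 CPM, 95% Poisson interval 166 to 185) and 115 UMIs in CD163_NC (33.5 CPM, 27.6 to 40.2), a ratio of 5.23 (95% interval 4.32 to 6.38). A UMI was found in 195 of 944 CD163_FL cells (20.7%) and 40 of 400 CD163_NC cells (10.0%). After each cell was thinned to 1000 UMIs, which left out 4 and 3 cells, the shares were 9.04% and 4.28%, against 0.118% and 0.0636% in T cells. Median depth was 7530.5 UMIs in CD163_FL and 8160 UMIs in CD163_NC macrophage-gated cells, and 7220 and 5797 UMIs in T cells.

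Cells with many Spp1 UMIs were almost all from CD163_FL. In that library 42 cells with 10 or more Spp1 UMIs held 821 of the 1305 UMIs (62.9%), while CD163_NC had 1 such cell with 11 UMIs. Outside the macrophage gate the picture depended on single cells. The CD163_NC plasma cell gate had 82 Spp1 UMIs, of which 61 were in 1 cell that carried 8 plasma cell and 6 macrophage markers in 24979 UMIs. The CD163_FL plasma cell gate had 63 Spp1 UMIs, 16 of them in a cell that carried 6 plasma cell and 4 macrophage markers. In type 1 dendritic cells, which present antigen to CD8 T cells, Spp1 stood at 21.2 CPM in CD163_FL (47 UMIs) and 23.3 CPM in CD163_NC (9 UMIs), a ratio of 0.910 (0.441 to 2.11). Of the 9 CD163_NC UMIs 8 were in 5 cells. Without the 5 highest cells of each library 29 UMIs were left in CD163_FL and 1 in CD163_NC, with a log2 ratio of 2.03 in place of -0.14, so no direction is read there.

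The receptors of osteopontin were also measured in the macrophage gate. Of 10 receptor genes listed, 8 had at least 20 UMIs over both libraries, and in CD163_FL 5 of these stood higher and 1 lower by 1.5-fold or more, with a median log2 ratio of 0.80. Over all 11151 genes measured in this gate 17.6% were higher and 35.1% lower by this rule, and the median was -0.26. Cd44, which binds both osteopontin and hyaluronan, had 21602 UMIs in CD163_FL (2897 CPM) and 3402 UMIs in CD163_NC (991 CPM), a ratio of 2.92 (2.82 to 3.03). Itga5, the alpha chain of a fibronectin receptor, was higher by 3.22 (2.88 to 3.62). Itgb5, a partner chain of Itgav, was lower, at 30.0 CPM in CD163_FL and 65.5 CPM in CD163_NC (ratio 0.458, 0.379 to 0.554). Itga9 at 0.858 and Itgb3 at 0.969 stayed within 1.5-fold.

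Mmp12 encodes macrophage elastase, which cuts elastin. It had the largest library ratio of the 4 genes with at least 20 UMIs in the macrophage gate, with 995 UMIs in CD163_FL (133 CPM, 125 to 142) and 42 UMIs in CD163_NC (12.2 CPM, 8.81 to 16.5), a ratio of 10.9 (8.01 to 15.2). A UMI was found in 112 CD163_FL cells (11.9%) and 5 CD163_NC cells (1.25%). Thinned to 1000 UMIs the shares were 5.64% and 0.504%, against 0.118% and 0% in T cells. The CD163_NC value rested on 1 cell, which held 32 of the 42 UMIs and carried 7 of the 8 macrophage markers. Without the 5 cells with the most Mmp12 UMIs in each library, CD163_FL kept 689 UMIs. CD163_NC had to be left with 0, since only 5 of its cells had any, so nothing is read from this.

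The UMIs were concentrated in CD163_FL too. There 28 cells with 10 or more Mmp12 UMIs held 766 of the 995 (77.0%), and the highest cell had 110. All 70 Mmp12 UMIs of the CD163_FL epithelial gate came from 1 cell of 42297 UMIs with 8 epithelial, 6 type 1 dendritic cell and 5 macrophage markers. Mmp1b, whose gene overlaps Mmp12 on the opposite strand, had 0 UMIs in the macrophage gate of each library.

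Mmp19 encodes a secreted metalloproteinase that cuts basement membrane proteins. In the macrophage gate it had 621 UMIs in CD163_FL (83.3 CPM, 76.9 to 90.1) and 98 UMIs in CD163_NC (28.5 CPM, 23.2 to 34.8), a ratio of 2.92 (2.35 to 3.65). Unlike the UMIs of Spp1 and Mmp12, those of Mmp19 were spread thinly, with 1 UMI in 153 of the 276 CD163_FL cells and 38 of the 60 CD163_NC cells that had any. The shares of cells were 29.2% in CD163_FL and 15.0% in CD163_NC, and 5.85% and 1.51% after thinning, against 0.104% and 0% in T cells.

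Mmp19 was also present in type 1 dendritic cells, with 89 UMIs in 109 CD163_FL cells (40.2 CPM) and 4 UMIs in 27 CD163_NC cells (10.4 CPM). The ratio was 3.88 (1.46 to 14.5). Without the 5 highest cells of each library 45 UMIs were left in CD163_FL. CD163_NC, with 4 UMIs in all, had to be left with 0, so the ratio rests on few cells. In the fibroblast gate 42 UMIs gave 97.6 CPM in CD163_FL, while 9 UMIs in only 3 cells gave 394 CPM in CD163_NC. Gm47093 and Tmem198b overlap Mmp19 on the opposite strand and had 6 and 48 UMIs in the CD163_FL macrophage gate, and 4 and 16 in that of CD163_NC. Whether the counting used strand is not given in the sources used here.

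Mmp14 encodes a membrane-bound metalloproteinase that activates pro-Mmp2 and cuts fibrillar collagen. It was the most evenly found of the 4 macrophage genes, with a UMI in 473 CD163_FL cells (50.1%) and 164 CD163_NC cells (41%) of the macrophage gate. There were 1680 UMIs in CD163_FL (225 CPM, 215 to 236) and 521 UMIs in CD163_NC (152 CPM, 139 to 165), a ratio of 1.48 (1.35 to 1.64) that lies just inside 1.5-fold. It passed 1.5-fold in 7 of 14 alternative treatments of the data, the range of log2 ratios being 0.42 to 0.84. Cells with 10 or more Mmp14 UMIs held 21.2% of the UMIs in CD163_FL (27 cells) and 9.21% in CD163_NC (2 cells). Thinned shares were 19.5% in CD163_FL and 13.9% in CD163_NC, against 0.222% and 0.0954% in T cells.

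Mmp14 was not confined to macrophages. The fibroblast gate had it in 46 of 51 CD163_FL cells (236 UMIs, 548 CPM), while the 3 CD163_NC cells of that gate gave 9 UMIs. Epithelial cells had 104 UMIs in CD163_FL (45.2 CPM) and 160 UMIs in CD163_NC (37.6 CPM), a ratio of 1.20 with an interval that includes 1 (0.929 to 1.55). By the mean of per-cell CPM the log2 ratio was 0.90 in place of 0.26.

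Mmp10 encodes stromelysin-2, a secreted protease that cuts proteoglycans, laminin and other proenzymes. In both libraries most of its UMIs were in T cells and few in macrophages. The T cell gate had 638 UMIs in 274 of 6763 CD163_FL cells (4.05%; 11.03 CPM, 10.2 to 11.9) and 77 UMIs in 31 of 3154 CD163_NC cells (0.983%; 3.70 CPM, 2.92 to 4.62), a ratio of 2.98 (2.35 to 3.83). Thinned to 1000 UMIs the shares were 0.873% and 0.382%. The highest cell had 34 UMIs in CD163_FL and 15 in CD163_NC, where 5 cells held 49.4% of the UMIs. Without the 5 highest cells of each library the log2 ratio was 2.37 in place of 1.58. That step took out 5 of 31 positive cells in CD163_NC but only 5 of 274 in CD163_FL.

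T cells were split by their own UMIs of Cd4, Cd8a or Cd8b1 and Foxp3, the regulatory T cell factor. In CD163_FL Mmp10 was highest among cells with a Cd4 UMI alone, at 19.7 CPM (375 UMIs, 139 of 2201 cells), against 8.96 CPM (6.91 to 11.4) in cells with no Cd4, Cd8 or Foxp3 UMI. In CD163_NC it stood at 5.45 CPM (4.07 to 7.14) with a Cd4 UMI alone (52 UMIs, 19 of 1401 cells) and 4.92 CPM (3.01 to 7.60) with none of these, and the intervals overlap. Cells with a Foxp3 UMI had 10 Mmp10 UMIs in 79 CD163_FL cells (13.5 CPM, 6.48 to 24.8) and 0 UMIs in 114 CD163_NC cells, which allows up to 3.51 CPM, so that this group is measured loosely. Cells with a Cd8 UMI alone stood at 6.06 CPM in CD163_FL and 0.379 CPM in CD163_NC (2 UMIs). Plasma cells, the antibody-secreting cells of the lamina propria, had 120 Mmp10 UMIs in CD163_FL (3.95 CPM) and 21 in CD163_NC (0.733 CPM), a ratio of 5.39 (3.37 to 9.02). Of the 21 CD163_NC UMIs 16 were in 5 cells. The log2 ratio was 2.43, against 3.70 without the 5 highest cells of each library and 3.33 by the mean of per-cell CPM.

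**Figure D3:**
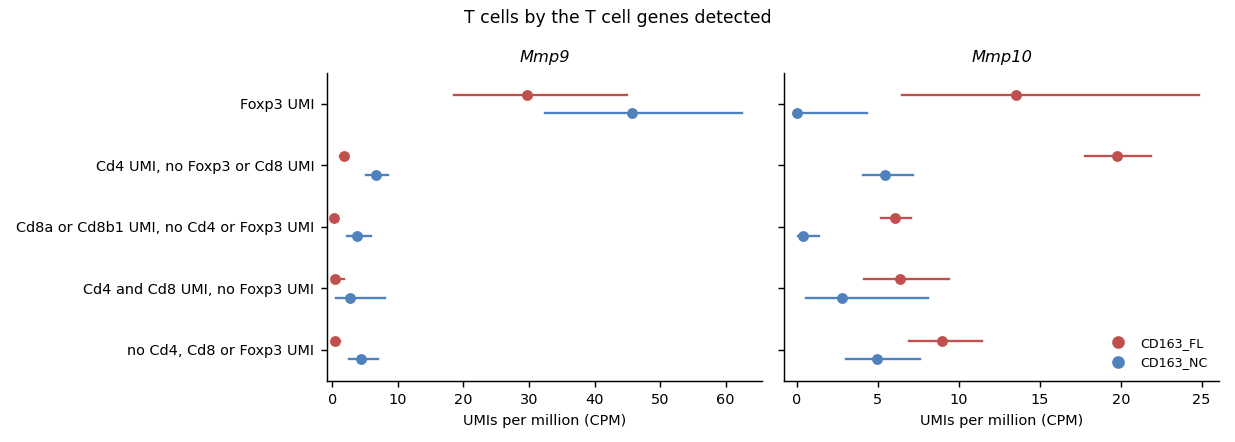
Level of Mmp9 and Mmp10 (CPM) in T cells split by Cd4, Cd8 and Foxp3 UMIs, CD163_FL above CD163_NC, with exact Poisson 95% intervals. Mmp10 is highest in CD163_FL cells with a Cd4 UMI alone (19.7 CPM), and Mmp9 is highest in cells with a Foxp3 UMI in both libraries (29.7 and 45.7 CPM).

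T cells with an Mmp10 UMI also differed from other T cells of the same library in genes picked after their values were seen. In CD163_FL, the costimulatory receptor gene Tnfrsf4 was 1.83-fold higher in Mmp10-positive cells, Maf 1.84-fold and Ly75 2.08-fold, while Tcf7 (0.431), Klf2 (0.473) and Ccr7 (0.476), genes of naive and recirculating T cells, were lower. Only part of this held in CD163_NC, where Ly75 stood at 2.12 and Ccr7 at 0.492, but Tnfrsf4 at 0.594, Tcf7 at 0.971 and Klf2 at 0.879. Mmp10-positive cells were deeper, with a median of 9549 UMIs against 7136 in the other CD163_FL T cells, and its part in these ratios was not tested.

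Mmp9 encodes gelatinase B, which neutrophils store in granules. The number of neutrophils differed between the libraries, 8 in CD163_FL and 143 in CD163_NC. Neutrophils had 54 UMIs in 3 of 8 CD163_FL cells (1722 CPM) and 2026 UMIs in 103 of 143 CD163_NC cells (1710.4 CPM), a ratio of 1.01 (0.754 to 1.32). The share of neutrophils with a UMI was 37.5% in CD163_FL and 72.0% in CD163_NC. Of the 54 CD163_FL UMIs 36 were in 1 cell, and all were in 3 cells, so the close CPM rests on few cells. Without the 5 highest cells of each library 1772 UMIs were left in CD163_NC, while CD163_FL, with 3 positive cells, had to be left with 0. Over all kept cells, CD163_FL had 213 Mmp9 UMIs (1.65 CPM) and CD163_NC had 2492 (26.7 CPM). In the macrophage gate only 3 UMIs were found in CD163_FL and 6 in CD163_NC, so Mmp9 could not be compared there.

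By level, Mmp9 among T cells was highest in those with a Foxp3 UMI. These had 22 UMIs in 10 of 79 CD163_FL cells (29.7 CPM, 18.6 to 45.0) and 39 UMIs in 17 of 114 CD163_NC cells (45.7 CPM, 32.5 to 62.4). T cells with a Cd4 UMI alone held more UMIs, at a lower level of 1.74 CPM in CD163_FL (33 UMIs) and 6.70 CPM in CD163_NC (64 UMIs). Those with a Cd8 UMI alone had 0.297 and 3.79 CPM. In all T cells Mmp9 was lower in CD163_FL, with 68 UMIs (1.18 CPM) against 144 in CD163_NC (6.91 CPM), a ratio of 0.170 (0.126 to 0.228). The summed neutrophil markers in T cells stood at 5.95 CPM in CD163_FL and 747 CPM in CD163_NC. The proportion of Mmp9 to these markers was not constant across CD163_NC lineages. There were 5.07 Mmp9 UMIs per 1000 neutrophil marker UMIs in neutrophils, 9.26 in T cells, 0.672 in the macrophage gate and 0.918 in B cells. The source of the Mmp9 UMIs in T cells was not tested.

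Mmp9 was also read in T cells with no UMI of the 8 neutrophil markers. It stood at 1.14 CPM in 6509 such CD163_FL cells and 5.44 CPM in 890 CD163_NC cells. Among those with a Foxp3 UMI it stood at 28.6 CPM in CD163_FL (17.5 to 44.1), from 20 UMIs in 8 of 74 cells. In CD163_NC it stood at 51.8 CPM (24.9 to 95.3), from only 10 UMIs in 4 of 32 cells. Among those without a Foxp3 UMI it stood at 0.789 CPM (43 UMIs) and 3.64 CPM (18 UMIs). The values with a Foxp3 UMI thus rest on few cells. Mmp9-positive T cells had more Foxp3 than other T cells, by 14.2-fold in CD163_FL and 5.59-fold in CD163_NC, and more Il10, which encodes an inhibitory cytokine, by 8.64-fold and 3.96-fold. In CD163_NC they also had 16.2-fold more neutrophil marker UMIs, against 1.93-fold (0.622 to 4.54) in CD163_FL.

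For scale only, the calls of the 6 genes in the macrophage gate are given beside those of all genes. Of the 6 genes, 4 had at least 20 UMIs there, 3 stood higher in CD163_FL by 1.5-fold or more, 0 lower, and Mmp14 was within 1.5-fold. Over all genes the shares were 17.6% higher and 35.1% lower. Measured from the median gene, the log2 ratios were 2.65 for Spp1, 3.71 for Mmp12, 1.81 for Mmp19 and 0.83 for Mmp14. In T cells all 6 were measured, with 4 higher, 1 lower and 1 within 1.5-fold, against 11.4% of 15028 genes higher and 22.5% lower. Since the genes were chosen on these contrasts, nothing is read from their count.

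**Figure D4:**
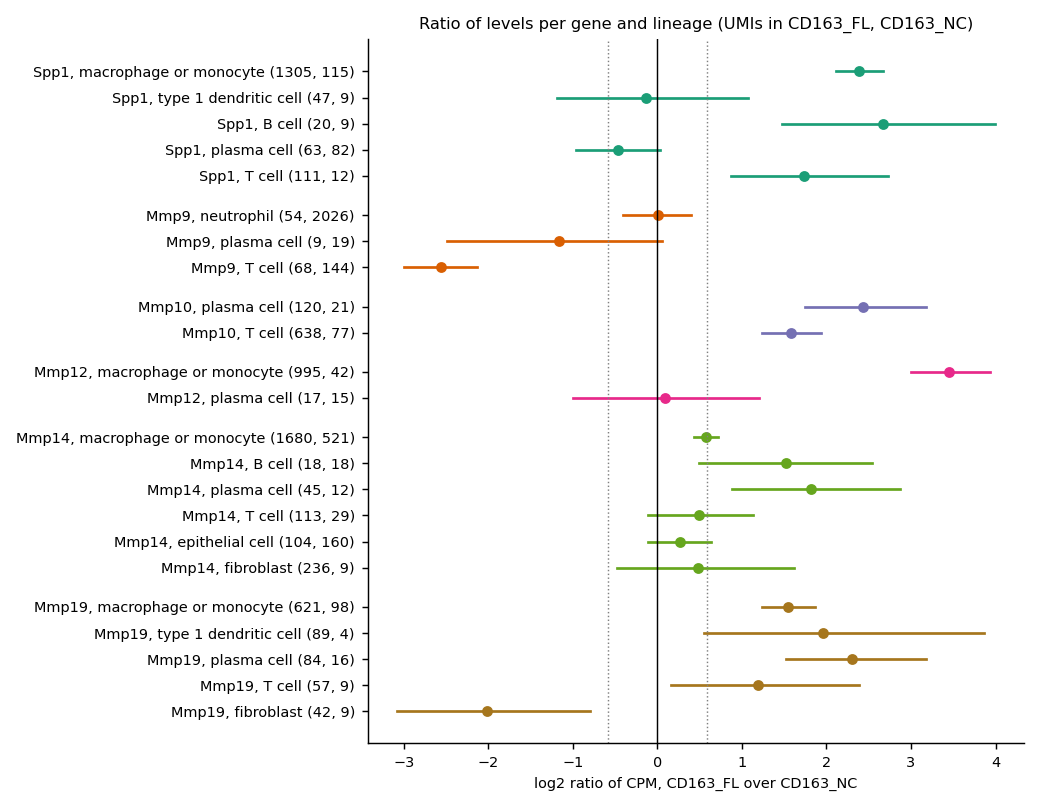
Log2 ratio of CPM, CD163_FL over CD163_NC, for each gene and lineage with at least 20 UMIs and at least 1 UMI in each library; bars are exact conditional binomial 95% intervals, dotted lines mark 1.5-fold and UMIs stand in brackets. Spp1, Mmp12 and Mmp19 lie at 2.39, 3.45 and 1.55 in the macrophage gate, Mmp9 lies at -2.56 in T cells and 0.01 in neutrophils.

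Macrophage-gated cells were divided by how many of the 3 chains of complement C1q, a product of resident tissue macrophages, had a UMI. In CD163_FL, 158 cells (16.7%) had 2 or 3 chains and 709 (75.1%) had 0, while in CD163_NC 118 (29.5%) had 2 or 3 and 245 (61.3%) had 0. Mmp14 was higher in cells with 2 or 3 chains in both libraries. It stood at 424 CPM in cells with 2 or 3 chains and 161 CPM in cells with 0 in CD163_FL (ratio 2.63, 2.37 to 2.92), and at 282 and 90.1 CPM in CD163_NC (3.13, 2.60 to 3.77).

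In CD163_FL Mmp12 stood at 290 CPM in cells with 2 or 3 chains and 80.8 CPM in cells with 0 (3.59, 3.13 to 4.11). In CD163_NC it stood at 3.75 CPM (4 UMIs) and 18.0 CPM (38 UMIs), the second value including the cell with 32 UMIs. Between libraries, the Mmp12 ratio was 77.3 (30.0 to 285) in cells with 2 or 3 chains and 4.48 (3.22 to 6.42) in cells with 0. Without the highest Mmp12 cell of each library, it stood at 215 CPM with 2 or 3 chains and 80.8 CPM with 0 in CD163_FL (2.66, 2.29 to 3.08), and at 3.75 CPM (4 UMIs) and 2.86 CPM (6 UMIs) in CD163_NC (1.31, 0.272 to 5.53), so no difference by C1q is read in CD163_NC. The library ratios were then 57.3 (22.2 to 212) with 2 or 3 chains and 28.3 (12.9 to 77.4) with 0. Spp1 in CD163_FL stood at 173 CPM with 2 or 3 chains and 156 CPM with 0 (1.11, 0.957 to 1.28). It was higher, at 357 CPM (310 to 409), in the 77 CD163_FL cells with 1 chain. The 210 Spp1 UMIs there were in 20 cells, 44 of them in 1 cell, so this value rests on few cells. In CD163_NC Spp1 was 1.90-fold higher (1.27 to 2.84) with 2 or 3 chains than with 0. Mmp19 stood at 75.9 CPM with 2 or 3 chains and 83.0 CPM with 0 in CD163_FL, and at 17.8 and 36.5 CPM in CD163_NC. Spp1, Mmp12, Mmp14 and Mmp19 were all higher in CD163_FL within each of these classes.

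**Figure D5:**
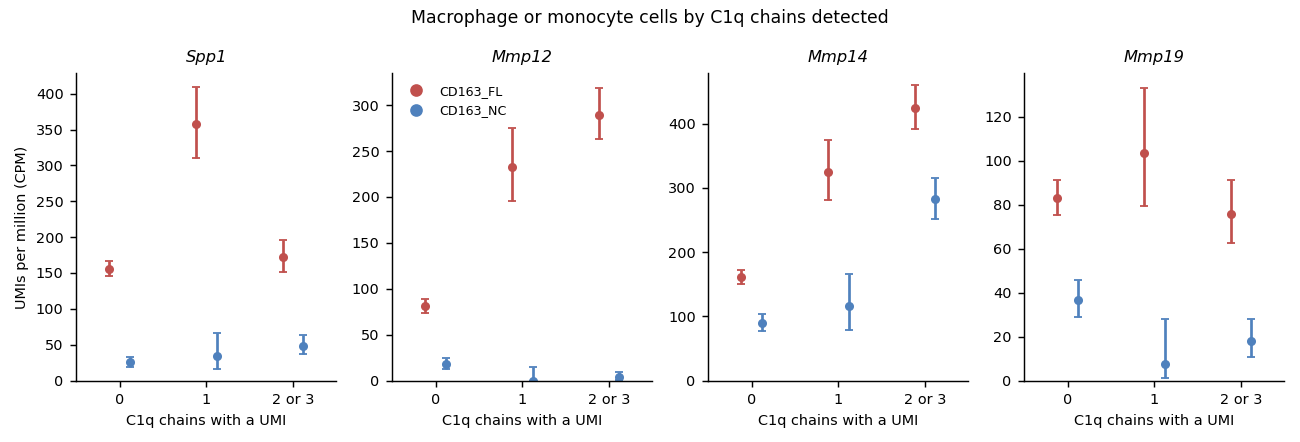
Level (CPM) of Spp1, Mmp12, Mmp14 and Mmp19 in macrophage-gated cells with 0, 1, and 2 or 3 C1q chains, CD163_FL beside CD163_NC, with exact Poisson 95% intervals. Mmp14 is higher with more chains in both libraries (161, 325 and 424 CPM in CD163_FL, and 90.1, 116 and 282 CPM in CD163_NC). In CD163_FL Mmp12 is higher with 1 chain (233 CPM) and with 2 or 3 (290 CPM) than with 0 (80.8 CPM). Without the highest Mmp12 cell the value with 2 or 3 chains is 215 CPM, so no rise from 1 chain is read.

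Of the 4 macrophage genes, 6 CD163_FL cells had all 4, 69 had 3, 226 had 2, 373 had 1 and 270 had none. In CD163_NC 0 cells had all 4, 5 had 3, 48 had 2, 158 had 1 and 189 had none. Cells with none made up 28.6% of the CD163_FL and 47.25% of the CD163_NC macrophage gate. Median depth was 6277.5 UMIs in CD163_FL cells with none and 11879 UMIs in those with all 4. In CD163_NC it was 7731 UMIs with none and 10452 UMIs with 3. The part of depth in these counts was not tested. Spp1 and Mmp12 met in 26 CD163_FL cells, so that 23.2% of the 112 Mmp12-positive cells and 20.3% of the Mmp12-negative cells had Spp1. In CD163_NC 0 cells had both, but only 5 of its 400 cells had Mmp12 and 40 had Spp1, so nothing is read from this. Mmp14 was found in 66.1% of Mmp12-positive and 48.0% of Mmp12-negative CD163_FL cells. Thinned to 1000 UMIs, these CD163_FL shares were 15.1% and 8.68% for Spp1, from 8 of 53 Mmp12-positive cells, and 34.0% and 18.6% for Mmp14.

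Other genes set these cells apart, again picked after their values were seen. CD163_FL cells with Mmp12 had 5.13-fold more Il12b (a subunit of the cytokines IL-12 and IL-23), 3.75-fold more Nos2 (inducible nitric oxide synthase) and 3.26-fold more Timp1 than cells without it, and less Chil3 (0.314). CD163_FL cells with Spp1 had 2.21-fold more Cxcl1, a neutrophil-attracting chemokine, and 2.36-fold more Timp1, but less Il12b (0.528). In CD163_NC the pattern around Spp1 was the reverse for both cytokine genes, since Spp1-positive cells had 26.2-fold more Il12b (12.4 to 60.3) and less Cxcl1 (0.422, 0.238 to 0.695). They also had 60.2-fold more Nos2, with 40 UMIs summed over the 40 Spp1-positive cells and 6 over the other 360. How many cells held these Nos2 and Il12b UMIs was not counted, so how far the ratios rest on few cells was not tested. In that library both genes were also higher in cells with Mmp14 or Mmp19, but each split counts the same UMIs. Nos2 had 40, 42 and 27 UMIs in cells with Spp1, Mmp14 and Mmp19, and 6, 4 and 19 in cells without. Mmp14-positive cells had 14.4-fold more Nos2 and 52.1-fold more Il12b (8.80 to 2110, with 1 Il12b UMI in the cells without Mmp14), and Mmp19-positive cells 6.99-fold and 19.1-fold more. CD163_FL cells with Mmp19 had 2.83-fold more Mrc1, the mannose receptor gene, and less Saa3 (0.320). In CD163_NC the same ratios were 0.979 (0.703 to 1.34) for Mrc1 and 0.644 for Saa3. Cells with Mmp14 had more C1qa, by 9.36-fold in CD163_FL and 5.39-fold in CD163_NC.

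Other metalloproteinase genes had few UMIs in the macrophage gate, where 4 of 16 were measured, 2 higher, 1 lower and 1 within 1.5-fold. The lower one, Mmp2, had 11 and 9 UMIs and an interval that includes 1 (0.563, 0.212 to 1.54). Over all genes measured in this gate 17.6% were higher and 35.1% lower, with a median log2 ratio of -0.26. Mmp13, a collagenase gene next to Mmp12, had 284 UMIs in CD163_FL and 40 in CD163_NC (ratio 3.27, 2.34 to 4.67), and its share of UMIs in the macrophage gate was 54.7% and 38.8%. Mmp25, which encodes a membrane-anchored protease of leukocytes, had 168 and 38 UMIs (2.04, 1.42 to 2.98). Mmp8, the neutrophil collagenase gene that lies next to Mmp10, had 108 UMIs in CD163_FL and 45 in CD163_NC in this gate, but in CD163_NC 80.4% of its UMIs were in neutrophils. The gelatinase A gene Mmp2 had 75.3% of its CD163_FL UMIs in the fibroblast gate, and Mmp15 had 74.1% of CD163_FL and 84.1% of CD163_NC UMIs in epithelial cells.

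Among inhibitors and cofactors, 4 of 7 genes were measured in the macrophage gate, with 1 higher, 2 lower and a median log2 ratio of -0.32. Over all genes in this gate 17.6% were higher and 35.1% lower, with a median of -0.26. Timp1 had 137 UMIs in CD163_FL and 10 in CD163_NC (6.31, 3.33 to 13.5), whereas Timp2 had 59 and 105 UMIs (0.259, 0.185 to 0.359). Bsg, which encodes a metalloproteinase inducer, stood at 95.2 and 153 CPM (0.623, 0.556 to 0.698). Of the plasminogen activation genes 8 of 10 were measured, with 3 higher, 0 lower and a median of 0.49. Plaur, the urokinase receptor gene, stood at 790 CPM in CD163_FL and 449 CPM in CD163_NC (1.76), and Plat, which encodes tissue plasminogen activator, at 16.5 and 3.20 CPM (5.15, 2.78 to 10.6). The urokinase gene Plau was within 1.5-fold at 1.04 (0.885 to 1.23).

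Of 10 ADAM and ADAMTS protease genes 7 were measured in the macrophage gate, with 2 higher, 1 lower and a median of -0.15. For this and the next lists, the shares over all genes were again 17.6% higher and 35.1% lower, with a median of -0.26. With so few genes per list, nothing is read from these counts. Adam8 had a ratio of 3.31 (2.60 to 4.27), Adam17, the TNF-shedding enzyme gene, 1.52 (1.39 to 1.67) and Adam19 0.446 (0.331 to 0.600). Of 14 matrix substrates 8 were measured, with 4 higher, 1 lower and a median of 0.44. The lower one, Col1a2, had 16 and 12 UMIs (0.614, 0.273 to 1.42), and Col4a2, among the higher ones, 28 and 6 (2.15, 0.873 to 6.35). Both intervals include 1. Thbs1, which encodes thrombospondin-1, had 13919 UMIs in CD163_FL and 1215 in CD163_NC (5.28, 4.97 to 5.60), and the fibronectin gene Fn1 stood at 0.821 (0.739 to 0.914). The 13 regulator genes were all measured, with 5 higher, 3 lower and a median of 0.42. Il1b, an inducing cytokine gene, stood at 5522 CPM in CD163_FL and 2401 CPM in CD163_NC (2.30), and Nfkb1 was higher by 2.75. The AP-1 genes Fos (0.162), Jun (0.328) and Junb (0.578) were lower in CD163_FL.

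Over 15 lineage and library units of at least 50 cells, the genes whose log2(CPM + 1) was most like that of Spp1 were Mdm2 (Pearson r 0.937), Mybpc3 (0.933), Gm34276 (0.931), Cflar (0.930) and Il1b (0.925). Those most like Mmp12 were 1600022D10Rik (0.921), Tex12 (0.896), Slc1a2 (0.889), Gm35330 (0.886) and Slc4a11 (0.874). These are the highest of 16806 genes compared, the units share libraries, depth and the macrophage gate, and the values are a description.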

How the data were processed

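The authors deposited raw counts of UMIs per gene and barcode, which Cell Ranger 7.1.0 wrote per the file headers. The submitters' processing notes name mm10 and Seurat 4 without a role. How reads were aligned, and whether free RNA was corrected for, is not given in the sources used here. Barcodes numbered 15270 (131306539 UMIs) in CD163_FL and 10390 (94729872 UMIs) in CD163_NC. Kept were cells with at least 500 UMIs, 200 genes and at most 10% mitochondrial UMIs, which removed 22 and 869 barcodes of CD163_FL and 8 and 370 of CD163_NC.

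A cell joined the lineage with most of its 8 markers detected, if there were at least 4 and at least 2 more than for any other of the 14 lists. A cell with a smaller lead was mixed, and a cell whose lead reached 2 stayed in its lineage even where another list also reached 4. The gates left 2428 CD163_FL and 1381 CD163_NC cells unassigned, and 223 and 59 macrophage-gated cells lay at the gate's limit. Doublets were treated by setting mixed cells aside. Scrublet (in scanpy 1.11.5), tried as an alternative at an expected rate of 0.8% per 1000 barcodes, called 664 and 256 kept cells, 28 and 2 of them in the macrophage gate.

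Summed UMIs were scaled to CPM, with exact Poisson 95% intervals for levels and exact conditional binomial ones for ratios. Called means at least 1.5-fold with at least 20 UMIs over both libraries, and a count of 0 was read as allowing 3 counts. No test was made, since there was 1 library per group. The 6 genes and the 7 gene lists (80 entries) were chosen with earlier results of these data known. The gate thresholds, T cell splits and companion genes were set after values were seen. Named were all 6 genes, the list genes with most UMIs or extreme ratios, and the 5 genes most like Spp1 and Mmp12, besides others chosen after their values were seen. Promoters are from RefSeq (4 of 6 genes matched). Python 3.11.15, numpy 2.4.6, scipy 1.17.1 and pandas 2.3.3 were used.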

Additional observations from a re-analysis of the deposited data

Results flagged for a closer look

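Mmp19 was singled out because its library ratio had opposite signs in different lineages. The log2 ratio of CD163_FL over CD163_NC was -2.02 in the fibroblast gate, against 1.55 in the macrophage or monocyte gate, 1.95 in type 1 dendritic cells, 2.31 in plasma cells and 1.19 in T cells. The T cell value rests on 57 and 9 UMIs whose source was not tested, and the type 1 dendritic cell value on 89 and 4 UMIs. The fibroblast value sets 42 UMIs in 51 CD163_FL cells against 9 UMIs in 3 CD163_NC cells, 7 of them in 1 cell. With 1 library per group the difference between lineages was not tested.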

How the results depend on the processing

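The log2 ratios of Spp1, Mmp12, Mmp14 and Mmp19 in the macrophage gate stayed above 0 in all 14 alternatives (15 for Mmp12), within 1.82 to 2.73, 2.17 to 6.27, 0.42 to 0.84 and 1.19 to 2.09. Alternatives chosen after seeing the data were a strict rule for mixed cells, a lead of 1 marker, C1q classes, with and without the highest Mmp12 cell, and a 3-marker gate on thinned cells. The following left the counting interval of the macrophage gate, or of T cells where named. With the gate on cells thinned to 1000 UMIs, Mmp12 was 2.37, Mmp14 0.42 and Mmp10 in T cells 0.96, and with 3 markers on thinned cells Mmp12 was 2.75. Scaling by the median gene gave Mmp14 0.83. Without the 5 highest cells Spp1 was 2.73 and Mmp10 in T cells 2.37. This took a larger part of the positive cells from CD163_NC, which had fewer of them. In cells with 0 C1q chains Mmp12 was 2.17, Mmp14 0.84 and Mmp19 1.19, and in cells with 2 or 3 chains Spp1 was 1.82, Mmp12 6.27 and Mmp19 2.09. Without the highest cell Mmp12 was 4.82 with 0 chains and 5.84 with 2 or 3. In other gates, Mmp9 in neutrophils was 0.43 on thinned cells, Mmp14 in epithelial cells 0.90 and Mmp10 in plasma cells 3.33 by the mean of per-cell CPM, and without the 5 highest cells Mmp10 in plasma cells was 3.70 and Spp1 in type 1 dendritic cells 2.03. The causes were not tested. Spp1 in plasma cells ranged from -3.89 to 3.03, so no direction is read there. Without the UMI minimum, 4833 genes were higher and 7319 lower in the macrophage gate, against 1963 and 3915 with it. Counts over the short gene lists moved as well. At 2-fold, or with at least 50 UMIs, 0 of the other metalloproteinases and 0 of the matrix substrates were lower there. At 2-fold 3 osteopontin receptors were higher, against 5 at 1.5-fold. No ratio could be had where 1 library was left with 0 UMIs, as for Mmp12 without the 5 highest cells. No paired analysis was possible because there was 1 library per group. Mmp9 and Mmp10 had under 20 UMIs in the macrophage gate, and few cells limit the fibroblast, neutrophil and type 1 dendritic cell values.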
